A study of Sus scrofa with 4 samples.

Results

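The genes described here are 8 genes of DNA damage signalling and repair, namely the damage kinases ATM and ATR, the checkpoint kinases CHEK1 and CHEK2, the ubiquitin ligase MDM2, the homologous recombination genes BRCA1 and BRCA2, and XRCC6, which encodes the Ku70 protein of end joining. They were selected by gene symbol, and all 8 were present with values among the 16050 genes measured in the series. They were followed in porcine oocytes at metaphase II, matured in vitro inside cumulus-oocyte complexes from slaughterhouse ovaries, either in medium without added Cu (Control) or in medium to which copper sulfate had been added at 25 μg/mL (Cu), the concentration the methods give for the experiments in general. RNA was amplified by Smart-seq2, which makes full-length cDNA of polyadenylated RNA from a few cells. Each library was made from 3 oocytes, and 4 libraries were analysed, Control 1 and Control 2 and Cu 1 and Cu 3. The methods describe 3 sets per group, and the libraries of the remaining sets were not analysed here. The sources used here do not say whether the sets came from separate cultures or animals, so p-values measure only the spread between these sets of oocytes.

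ATM and ATR are large kinases that respond to broken DNA, ATM mainly to broken ends and ATR to single-stranded DNA coated by the RPA complex. They activate the kinases CHEK2 and CHEK1, which hold the cell cycle, while MDM2 marks proteins of the damage response for degradation. BRCA1 and BRCA2 act in homologous recombination, in which a broken strand is copied from an intact one, whereas Ku70 and Ku80 hold broken ends for direct joining. A fully grown oocyte is largely transcriptionally silent and lives on stored maternal mRNA, so that an mRNA level at metaphase II reflects mainly storage and decay. Much of damage signalling runs through phosphorylation of proteins, which mRNA levels do not measure.

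The values are FPKM, which scale the fragments of a gene to its transcript length and to the library total, and the depth of the libraries is unknown. The FPKM summed to between 616082 and 672681 per library. Cu 1 stood apart from the other libraries, with 9364 genes at 1 FPKM or more against 7923 to 8162 elsewhere. Across the 8541 genes tested, Pearson's correlation of log2(FPKM + 1) was 0.918 to 0.923 between Cu 1 and each of the other libraries and 0.959 to 0.976 among the other libraries. All 9 oocyte markers with values, such as ZP2, GDF9 and BMP15, were at 1 FPKM or more in every library, and their summed level ranged from 2230 FPKM in Control 1 to 4673 FPKM in Control 2. The 10 cumulus and granulosa markers with values summed to 1.58 and 2.14 FPKM in the Control libraries and 2.78 and 1.07 FPKM in Cu 1 and Cu 3, and AMH was listed at 0 in every library. The 2 blood and immune markers with values summed to 0.31 and 0.21 FPKM in Control and to 2.0 and 0.09 FPKM in Cu 1 and Cu 3. Their part in the results below was not tested.

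The levels of the 8 genes covered a range from under 1 to nearly 100 FPKM. CHEK1 and BRCA2 were the most abundant, with means over the 4 libraries of 74.9 and 65.7 FPKM, at the 93.5 and 92.7 percentiles of all genes measured. XRCC6 followed with 31.9 FPKM, BRCA1 with 13.1, ATM with 8.05, CHEK2 with 3.52, ATR with 2.21 and MDM2 with 0.61 FPKM. The ranges over the libraries did not overlap between XRCC6 and BRCA1, between ATM and CHEK2, or between ATR and MDM2. Those of CHEK1 and BRCA2, BRCA2 and XRCC6, BRCA1 and ATM, and CHEK2 and ATR did overlap, so these neighbours in the order were not separated beyond their spread. Within each library BRCA1 was nevertheless above ATM and CHEK2 above ATR in all 4, whereas CHEK1 was above BRCA2 and BRCA2 above XRCC6 in 3 of 4.

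**Figure D1:**
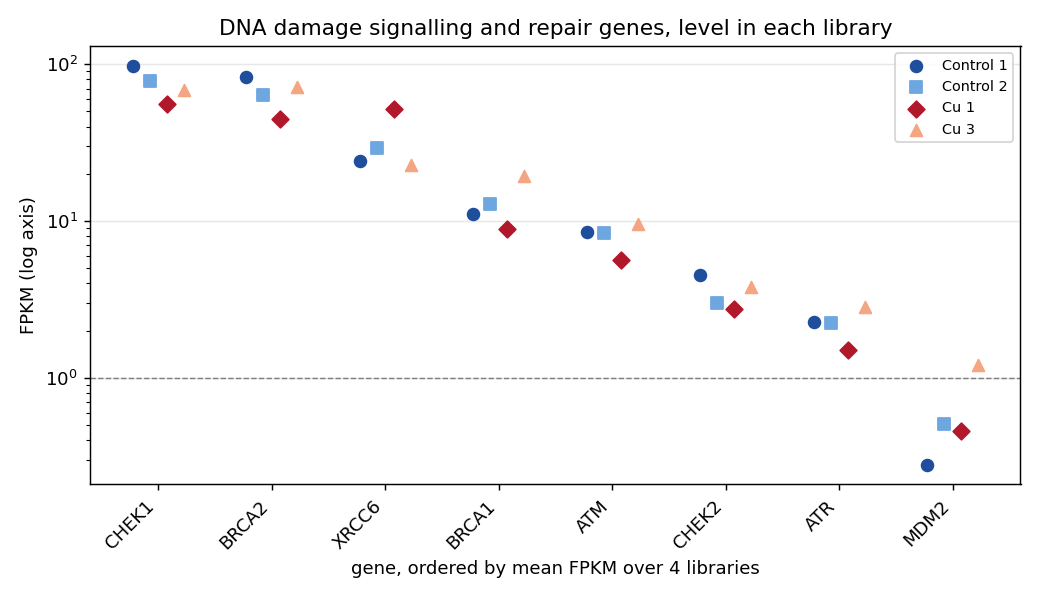
FPKM (log axis) of each of the 8 genes in each library, with genes ordered by their mean; each point is 1 library and the dashed line marks 1 FPKM. Cu 1 is the lowest library for CHEK1, BRCA2, BRCA1, ATM, CHEK2 and ATR and the highest for XRCC6 at 51.7 FPKM, and MDM2 reaches 1 FPKM only in Cu 3.

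Between Cu and Control, none of the 8 genes passed the test. Differences were computed on log2(FPKM + 1) for genes that reached 1 FPKM in 2 or more of the libraries, a condition that 7 of the 8 genes passed and MDM2 did not, and were tested with limma. At an adjusted p of 0.05, 0 of the 7 genes were called, and 0% of all genes tested. At an unadjusted p of 0.05, 0 of the 7 passed against 7.01% of all genes (599 of 8541), and the smallest adjusted p of any gene was 0.631. The 7 differences ran from -0.49 for CHEK1 to 0.36 for XRCC6, with a median of -0.16, while the median of all genes tested was 0.16. Of the 7 genes, 2 were higher and 5 were lower in Cu, where 64.3% of all genes were higher. The groups did not overlap in 1 of the 7, against 38.8% of all genes. In that gene Cu lay below Control, as in 13.4% of all genes, and in 0 of the 7 did it lie above, against 25.4%. An exact permutation test of any single gene cannot give a two-sided p below 0.333 with 2 libraries per group. In what follows, each pair of values is given in the order Control 1, Control 2 and Cu 1, Cu 3.

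ATM (identifier 100101922) lies on chromosome 9, from 36620656 to 36759555 in Sscrofa11.1. It had 8.53 and 8.39 FPKM in Control against 5.68 and 9.60 in Cu. The Control libraries were nearly equal and lay between the Cu libraries. The difference was -0.17 (standard error 0.39, 95% interval -1.13 to 0.80, adjusted p = 0.934), which as a fold of FPKM + 1 spans 0.456 to 1.74.

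ATR (identifier 100516227, chromosome 13, 83175515 to 83289986) showed the same order of libraries at a lower level, with 2.28 and 2.23 FPKM without added Cu and 1.51 and 2.83 FPKM with it. The Control values again lay between those of Cu. Its difference was -0.07 (standard error 0.38, 95% interval -0.998 to 0.86, adjusted p = 0.974). The ratio of ATM to ATR was 3.74, 3.76 and 3.76 in Control 1, Control 2 and Cu 1 and 3.39 in Cu 3, a narrow range beside that of other pairs given below.

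CHEK1 (identifier 100511709, chromosome 9, 52759224 to 52790878), the checkpoint kinase downstream of ATR, had Control values of 97.6 and 77.9 FPKM and Cu values of 55.8 and 68.1. It was the only gene of the 8 in which the groups did not overlap, and the gap between Control 2 and Cu 3 was smaller than the gap between the Control libraries. The mean was 87.8 FPKM in Control and 61.9 FPKM in Cu, a ratio of 0.706. On the log scale the difference was -0.49 (standard error 0.30, 95% interval -1.24 to 0.25, unadjusted p = 0.156, adjusted p = 0.756). It was the largest difference of the 7 genes in either direction, and did not exceed the spread between libraries in limma's test.

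CHEK2 (identifier 100192447, chromosome 14, 45699833 to 45967350), the kinase downstream of ATM, had 4.56 and 3.0 FPKM in Control against 2.74 and 3.77 in Cu. The libraries of the groups were interleaved, and the difference was -0.16 (standard error 0.39, 95% interval -1.10 to 0.79, adjusted p = 0.938). Within each library CHEK1 was 18.1 to 26.0 times the level of CHEK2 and 24.1 to 42.8 times that of ATR. The CHEK1 to CHEK2 ratio was 21.4 and 26.0 in the Control libraries and 20.3 and 18.1 in the Cu libraries.

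MDM2 (identifier 100125959, chromosome 5, 33105717 to 33137602) had 0.28 and 0.51 FPKM without added Cu and 0.46 and 1.2 FPKM with it. Cu 3 was above the other libraries, and Cu 1 lay between the Control libraries. When all genes above 0 were kept in the test, its difference was 0.37 (standard error 0.28, 95% interval -0.39 to 1.12, adjusted p = 0.818). MDM4, the relative and binding partner of MDM2, was higher, with Control values of 4.46 and 5.17 FPKM and Cu values of 4.57 and 4.04.

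BRCA1 (identifier 100049662, chromosome 12, 19788087 to 19854515) had 11.01 and 12.9 FPKM in Control against 8.95 and 19.4 in Cu. The Cu libraries lay on either side of the Control libraries, and their gap of 1.04 on the log2 scale compared with 0.21 between the Control libraries. The difference was 0.14 (standard error 0.45, 95% interval -0.96 to 1.24, adjusted p = 0.953). This direction turned under scaling between libraries, to -0.08 with median-of-ratios and to -0.10 with upper-quartile scaling and with quantile normalization.

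BRCA2 (identifier 100624979, chromosome 11, 8805950 to 8858128) had 82.7 and 64.0 FPKM without added Cu and 44.6 and 71.3 FPKM with it. Only Cu 1 lay outside the range of the Control libraries. The difference was -0.36 (standard error 0.36, 95% interval -1.24 to 0.51, adjusted p = 0.828). BRCA2 was above BRCA1 in every library, 7.51 and 4.96 times in Control 1 and 2 and 4.98 and 3.67 times in Cu 1 and 3.

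XRCC6 (identifier 100154200, chromosome 5, 6903496 to 6929162) had Control values of 24.1 and 29.1 FPKM and Cu values of 51.7 and 22.7. Cu 1 was the highest library and Cu 3 the lowest, which made this the widest gap between the Cu libraries of the 8 genes, -1.15 on the log2 scale from Cu 1 to Cu 3. The difference was 0.36 (standard error 0.46, 95% interval -0.76 to 1.48, adjusted p = 0.867). Its partner XRCC5, which encodes Ku80, had 15.2 and 13.9 FPKM in Control against 11.9 and 16.1 in Cu, with Cu 1 lowest and Cu 3 highest. The ratio of XRCC6 to XRCC5 was 1.59 and 2.09 in Control, 4.34 in Cu 1 and 1.41 in Cu 3.

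**Figure D2:**
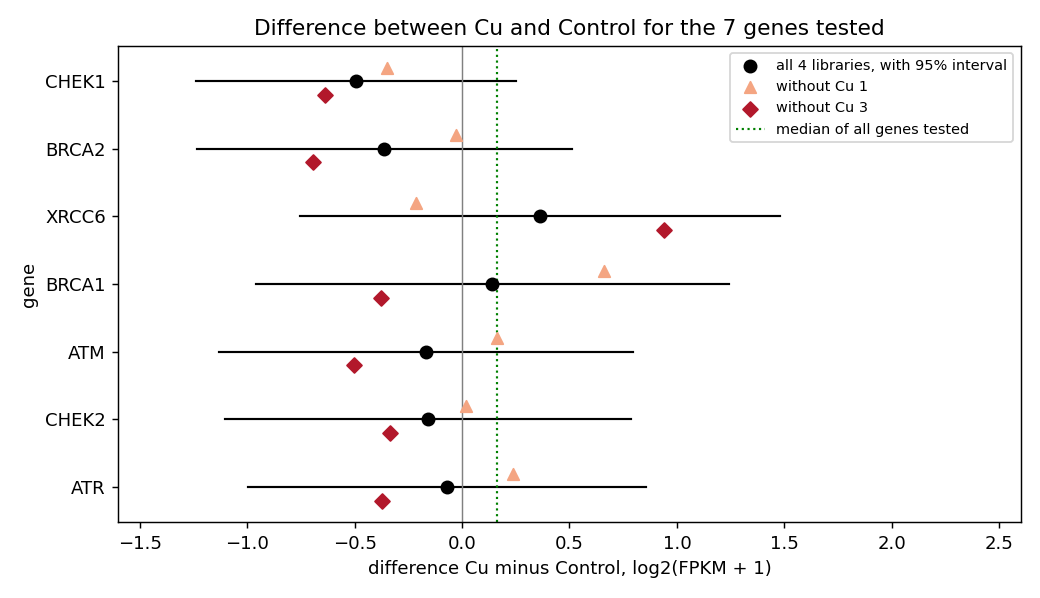
Difference Cu minus Control in log2(FPKM + 1) for the 7 genes tested. Black points and lines give the value of all 4 libraries and its 95% interval, triangles the value without Cu 1, diamonds the value without Cu 3, and the dotted line the median of all genes tested (0.16). Every interval spans 0, and the triangles and diamonds lie on opposite sides of 0 for XRCC6, BRCA1, ATM, CHEK2 and ATR.

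The Cu libraries differed from each other more than the Control libraries did in 5 of the 7 genes tested, against 70.5% of all genes, and not in CHEK1 and CHEK2. The median absolute gap between the Cu libraries was 0.66 over the 7 genes and 0.56 over all genes tested, and between the Control libraries it was 0.26 and 0.27. Cu 1 was the lowest of the 4 libraries in 6 of the 7 genes tested, against 19.1% of all genes, and the highest in XRCC6, where 51.0% of all genes were highest in Cu 1. Cu 3 was the highest in 3 of the 7, namely ATM, ATR and BRCA1, against 19.2% of all genes, and the lowest in XRCC6, against 29.9%. A Control library was the lowest in 0 of the 7, whereas Control 1 was so in 30.0% and Control 2 in 20.6% of all genes. These are single libraries, so the positions describe Cu 1 and Cu 3 and not the effect of Cu.

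Leaving out Cu 1 turned the median of the 7 genes from -0.16 to 0.02, and leaving out Cu 3 moved it to -0.38. Without Cu 1 the differences were 0.16 for ATM, 0.23 for ATR, 0.02 for CHEK2, 0.66 for BRCA1 and -0.22 for XRCC6, each on the other side of 0 or, for BRCA1, further from it. CHEK1 stayed lower at -0.35 and BRCA2 was near 0 at -0.03. No gene of the 7 was called without Cu 1, where 2.18% of all genes were. Without Cu 3, XRCC6 had a difference of 0.94 with an adjusted p of 0.043, in a fit that called 20.5% of all genes. Those fits take the spread from the Control libraries alone and assume that the lone Cu library varies like them.

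Scaling between libraries lowered the median of all genes and that of the 7 genes, while single genes moved by unequal amounts. The median of all genes tested changed from 0.16 to between -0.06 and -0.04 under the 3 scalings, and the median of the 7 genes to between -0.43 and -0.34. Relative to all genes the median of the 7 was -0.32 as deposited and -0.39 to -0.30 after scaling, with 6 of 7 genes below the median of all genes in each case. Without Cu 1 it was 0.01, with 3 of 7 below, and without Cu 3 it was -0.69, with 6 of 7 below.

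The authors' mean FPKM, which include libraries not analysed here, were 82.6 for Control and 64.7 for Cu in CHEK1, 74.4 and 54.2 in BRCA2, and 29.1 and 33.4 in XRCC6. They were 13.1 and 13.2 in BRCA1, 7.36 and 7.33 in ATM, 3.69 and 3.92 in CHEK2, 2.38 and 2.16 in ATR, and 0.52 and 0.69 in MDM2. They carry no error and were not tested. Statements in this text that the Cu libraries lie above or below the Control libraries cover only the 4 libraries analysed.

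The genes that work with these 8 were taken from 10 lists of repair and damage response genes with 188 entries, of which 180 genes had values and 148 passed the filter. Many were abundant, since 44.4% of the 180 had a mean of 10 FPKM or more, against 25.03% of all genes measured. At an adjusted p of 0.05 no gene of the lists was called. At an unadjusted p of 0.05, 3 of the 148 were higher in Cu, against 5.58% of all genes, and 4 were lower, against 1.43%. In 28 of the 148 both Cu values exceeded both Control values, against 25.4% of all genes, and in 26 both were below them, against 13.4%. As deposited, 75 of the 148 were higher and 73 lower, and after scaling 49 to 52 were higher and 96 to 99 lower. The median difference was 0.01, or 0.15 below that of all genes tested, and it was 0.15 to 0.16 below it under each scaling. Relative to all genes it was -0.02 without Cu 1, with 70 of the 148 above the median of all genes and 78 below, and -0.26 without Cu 3. The lists with a median above 0 all turned below 0 under each of the 3 scalings except nucleotide excision repair, which then had 0.06 to 0.12.

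**Figure D3:**
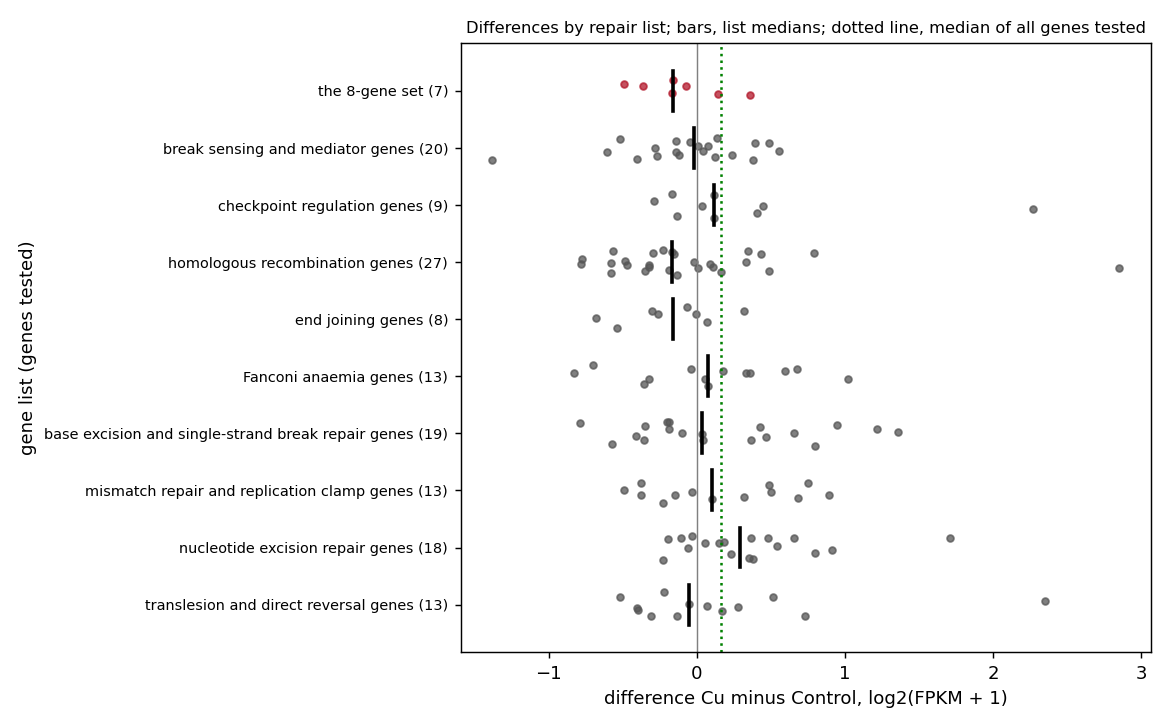
Difference Cu minus Control in log2(FPKM + 1) for each tested gene (points, vertical scatter only for legibility) of the 8-gene set and 9 of the 10 lists, with the number tested in brackets. Black bars are list medians, which run from -0.17 for homologous recombination to 0.29 for nucleotide excision repair, and the dotted line is the median of all genes tested.

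Break sensing and mediator genes had 20 tested members, 10 higher and 10 lower, with a median of -0.02, or -0.18 to -0.06 with a library left out. Upstream of ATM, the MRN complex that binds broken ends was at low to moderate level. Its gene RAD50 had 23.5 and 29.1 FPKM without added Cu and 17.7 and 16.1 FPKM with it, with both Cu libraries below (difference -0.60, adjusted p = 0.728). MRE11, the nuclease of the complex, had Control values of 5.36 and 4.46 FPKM and Cu values of 2.77 and 3.49, again with the Cu libraries below (difference -0.52, adjusted p = 0.779). With libraries not analysed here included, the authors' mean FPKM were 24.0 for Control and 18.7 for Cu in RAD50. They were 4.99 and 3.18 in MRE11. In RAD50 that Cu mean lay above both Cu libraries analysed. NBN, which brings ATM to the complex, had 3.53 and 3.41 FPKM in Control against 1.91 and 4.65 in Cu, the same order of libraries as ATM. H2AX was not analysed here.

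RPA2, a subunit of the RPA complex upstream of ATR, was the most abundant gene of the list, and had 229 and 190 FPKM without added Cu and 166 and 265 FPKM with it. RPA2 and RPA3, chosen for this ratio together with RPA1 after their values were seen, were 4.71 to 13.4 times the level of RPA1 within a library. ATRIP, the partner of ATR, had Control values of 3.01 and 2.41 FPKM and Cu values of 3.98 and 3.75, at a level like that of ATR (difference 0.40, adjusted p = 0.810). TOPBP1, which activates ATR, had 9.48 and 12.2 FPKM in Control against 13.3 and 17.8 in Cu (difference 0.49, adjusted p = 0.785). In both genes the Cu libraries lay above the Control libraries, by less than the spread in limma's test. CLSPN, the mediator between ATR and CHEK1, had 44 and 37.7 FPKM without added Cu and 38.4 and 29.5 FPKM with it, with the groups overlapping.

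RAD1 had the smallest unadjusted p of the 148 genes. It encodes a ring subunit of the clamp, formed with RAD9A and HUS1, that is loaded at damage sites and helps to activate ATR. RAD1 had Control values of 85.8 and 88.2 FPKM and Cu values of 44.9 and 23.9, with both Cu libraries far below the nearly equal Control libraries. The authors' mean FPKM of RAD1, which include libraries not analysed here, were 76.6 for Control and 45.1 for Cu. That Control mean lay below both Control libraries, and that Cu mean above both Cu libraries. In the 4 libraries the difference of RAD1 was -1.38 (standard error 0.38, 95% interval -2.32 to -0.44, unadjusted p = 0.011, adjusted p = 0.641 over all genes). It was -1.82 without Cu 1 and -0.94 without Cu 3, each value resting on 1 Cu library. HUS1 did not share the pattern of RAD1, with 105 and 115 FPKM in Control against 85.3 and 169 in Cu. The ratio of HUS1 to RAD1 was 1.23 and 1.30 in Control and 1.90 and 7.08 in Cu. RAD9A, given here as the remaining clamp subunit, had 9.42 and 4.77 FPKM in Control against 13.9 and 5.85 in Cu. Its groups overlapped, and its difference was 0.38 (adjusted p = 0.883).

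**Figure D4:**
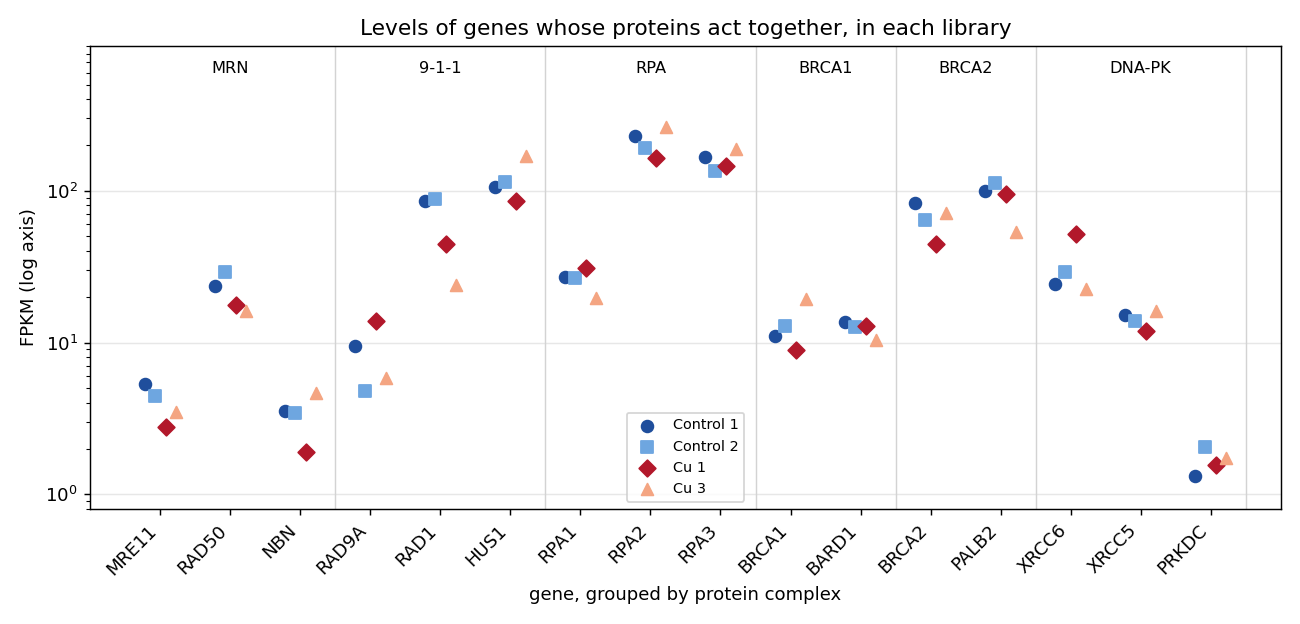
FPKM (log axis) in each library of genes whose proteins form complexes with or beside the 8 genes; each point is 1 library, MRN stands for the complex of MRE11, RAD50 and NBN, 9-1-1 for the clamp of RAD9A, RAD1 and HUS1, and DNA-PK for the kinase that Ku forms with PRKDC. RAD1 lies at 44.9 and 23.9 FPKM in the Cu libraries, below its Control libraries, and XRCC6 in Cu 1 stands above its partner XRCC5 by more than in the other libraries.

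Homologous recombination had 27 tested genes, 10 higher and 17 lower in Cu, with a median of -0.17, or -0.09 without Cu 1. PALB2, which links BRCA2 to BRCA1, had 100 and 112 FPKM without added Cu and 94.8 and 53.3 FPKM with it, with the Cu libraries below the Control libraries (difference -0.57, adjusted p = 0.765). BRCA2 was 0.470 to 1.34 times the level of PALB2 within a library.

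Of the recombination genes with an unadjusted p of 0.05 or less, RAD51AP1, which helps to pair DNA strands, had 312 and 262 FPKM in Control against 138 and 200 in Cu (difference -0.78, unadjusted p = 0.043, adjusted p = 0.677). RAD54B, a DNA motor protein, had 54.1 and 44.3 FPKM without added Cu and 26.5 and 29.9 FPKM with it (difference -0.78, unadjusted p = 0.047, adjusted p = 0.694). Both Cu libraries were thus below both Control libraries in RAD51AP1, RAD54B and PALB2. This held in 9 of the 27 genes of the list, against 13.4% of all genes. The authors' mean FPKM, which include libraries not analysed here, were 251 for Control and 187 for Cu in RAD51AP1. They were 43.8 and 32.1 in RAD54B and 106 and 73.2 in PALB2. In RAD51AP1 and RAD54B the authors' Control mean lay below both Control libraries analysed. In RAD54B their Cu mean lay above both Cu libraries. SEM1, a small protein that binds BRCA2 and is also a proteasome subunit, was higher in Cu, with Control values of 2.73 and 5.12 FPKM and Cu values of 125 and 8.44. Its difference was 2.85 (unadjusted p = 0.048, adjusted p = 0.703), and 0.98 without Cu 1. The entry named SEM1 covers only 144628949 to 144629377 on chromosome 13, and whether it is a copy of the gene was not tested. BARD1, the partner of BRCA1, was at a similar level to BRCA1, with 13.6 and 12.6 FPKM in Control against 12.8 and 10.4 in Cu. The ratio of BRCA1 to BARD1 was 0.810 and 1.03 in Control, 0.699 in Cu 1 and 1.87 in Cu 3.

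End joining had 8 tested genes, 2 higher and 6 lower, with a median of -0.16, or 0.07 without Cu 1. PRKDC, the catalytic subunit that Ku recruits, had 1.32 and 2.06 FPKM without added Cu and 1.56 and 1.74 FPKM with it, and XRCC6 was 13.03 to 33.1 times its level within a library. LIG4, the ligase of the pathway, had Control values of 6.02 and 5.02 FPKM and Cu values of 9.44 and 5.32. SHLD2, a subunit of shieldin, which protects broken ends from resection, was the most abundant of the list, with 212 and 351 FPKM in Control against 99.0 and 291 in Cu. Its adjusted p was 0.799, and its difference of -0.68 became 0.09 without Cu 1.

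Checkpoint regulation had 9 tested genes, 6 higher and 3 lower, with a median of 0.11. Without Cu 1, 2 were higher and 7 lower with a median of -0.03, and without Cu 3, 7 were higher and 2 lower with a median of 0.30. CDC25B, a phosphatase that activates cyclin-dependent kinases and is opposed by checkpoint kinases, had 1.96 and 2.01 FPKM without added Cu and 48.3 and 3.19 FPKM with it (difference 2.27, adjusted p = 0.708), and without Cu 1 the difference was 0.49. USP7, a deubiquitinase that acts on MDM2, was the most abundant, with Control values of 82.0 and 72.9 FPKM and Cu values of 95.2 and 73.6. CDKN1A, the cell cycle inhibitor p21 and a gene of a separate list of damage response targets, had 2.38 and 4.31 FPKM in Control against 11.9 and 3.72 in Cu (difference 0.88, adjusted p = 0.769), high only in Cu 1, and the difference was 0.16 without that library. RRM2B, a ribonucleotide reductase subunit, was the most abundant gene of the same list as CDKN1A, with 165 and 126 FPKM without added Cu and 91.2 and 119 FPKM with it (difference -0.46, adjusted p = 0.777).

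In base excision repair, 10 of 19 tested genes were higher and 9 lower, with a median of 0.04. Without Cu 1, 8 were higher and 11 lower with a median of -0.12, and without Cu 3, 16 were higher and 3 lower with a median of 0.23. The median was -0.01 without Control 1 and 0.21 without Control 2. NEIL3, a glycosylase for oxidized bases and the most abundant gene of the list, had Control values of 246 and 243 FPKM and Cu values of 162 and 123 (difference -0.79, unadjusted p = 0.032, adjusted p = 0.656). PARP1, the polymerase of poly(ADP-ribose) at DNA breaks, had 1.90 and 5.22 FPKM in Control against 8.19 and 11.9 in Cu (difference 1.36, unadjusted p = 0.033, adjusted p = 0.656). In NEIL3 and PARP1 the groups did not overlap, so leaving out a library could not turn the direction. Their differences were -0.98 and 1.60 without Cu 1 and -0.59 and 1.11 without Cu 3. The difference of PARP1 was 0.80 without Control 1 and 1.91 without Control 2. With libraries not analysed here included, the authors' mean FPKM were 227 for Control and 159 for Cu in NEIL3. They were 3.54 and 11.6 in PARP1. In NEIL3 the authors' Control mean lay below both Control libraries analysed, and in PARP1 each mean lay between the libraries of its group.

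Nucleotide excision repair had the highest list median, 0.29, against 0.16 over all genes tested. Of its 18 genes 13 were higher, where 64.3% of all genes were higher. With a library left out its median was 0.17 to 0.47. Relative to the median of all genes it was 0.13 with every library kept. That value was 0.06 without Control 1, -0.01 without Control 2, 0.25 without Cu 1 and 0.16 without Cu 3. GTF2H2, a subunit of the TFIIH complex that opens DNA around a lesion, had 3.92 and 10.6 FPKM without added Cu and 26.8 and 20.9 FPKM with it (difference 1.71, unadjusted p = 0.014, adjusted p = 0.641), and its difference was 1.09 without Control 1 and 2.32 without Control 2. CETN2, a centrin that is also part of the lesion-sensing complex, was the most abundant, with Control values of 1398 and 1239 FPKM and Cu values of 1045 and 1521.

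The other lists held no gene with an unadjusted p of 0.05 or less. Fanconi anaemia genes had 8 of 13 higher and a median of 0.08, or 0.05 to 0.20 with a library left out. FANCF, a subunit of the Fanconi core complex, had 27.8 and 41.8 FPKM in Control against 19.1 and 18.4 in Cu (adjusted p = 0.708), and FANCL, its ubiquitin ligase subunit, was at 493 and 1067 FPKM in Control and 372 and 862 in Cu. Mismatch repair and replication clamp genes had 7 of 13 higher and a median of 0.10, or -0.01 without Control 1 and 0.22 without Control 2. PCNA, the sliding clamp of replication and repair, was the most abundant gene of all the lists, with 4927 and 3885 FPKM without added Cu and 3077 and 3680 FPKM with it (adjusted p = 0.766), and RFC3, a subunit of the clamp loader, had a difference of 0.50 (adjusted p = 0.756). Translesion and direct reversal genes had 6 of 13 higher and a median of -0.05, or -0.20 without Control 1 and -0.01 without Cu 1. MGMT, which removes alkyl groups from guanine, had Control values of 3.22 and 3.02 FPKM and Cu values of 71.8 and 5.06 (adjusted p = 0.708), and a difference of 0.56 without Cu 1 against 2.35 with it, and RAD18, a ubiquitin ligase for PCNA, was the most abundant at 47.7 and 51.6 FPKM in Control against 37.4 and 37.2 in Cu.

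For each of the 7 genes, the gene of the 148 with the most similar pattern was sought, as the smallest root mean square difference of log2(FPKM + 1) over the 4 libraries after centring each gene on its own mean. These were UBE2B for ATM (0.061), CETN2 for ATR (0.059), MRE11 for CHEK1 (0.039), APTX for CHEK2 (0.087), HUS1 for BRCA1 (0.038), HLTF for BRCA2 (0.079) and PLK3 for XRCC6 (0.082). The genes themselves varied about their own means by 0.22 for ATR to 0.46 for XRCC6 on the same scale. With 4 libraries and 148 genes, such likeness is a description of the order of these libraries only.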

How the data were processed

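The deposited values were FPKM per gene and library, rounded to 2 decimals by the authors, in a table of 30684 rows of which 16050 held values, with the authors' mean FPKM of each group beside them. According to the methods, reads were filtered with SOAPnuke, aligned with HISAT2 and Bowtie2 and quantified with RSEM, whereas the submitters' processing notes name TopHat2 2.0.13, Cufflinks 2.2.1, Cuffnorm and Cuffdiff and the build Sscrofa11.1. Which of these made the values is not settled, and FPKM keep no read number. In each library the lowest nonzero value was 0.01, the rounding limit, so whole reads were not recovered and precision at low levels is unknown.

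The 8541 genes that reached 1 FPKM in 2 or more libraries were compared on log2(FPKM + 1) by a linear model with a variance trend in limma 3.58.1 (R 4.3.3), two-sided, with Benjamini-Hochberg adjustment over all genes tested. The added 1 makes differences of weakly expressed genes smaller. The fit was tested on simulated data. Groups and replicates came from the sample labels. Gene positions are those of the RefSeq table of Sscrofa11.1, in which the identifiers of all listed genes were found. The 8 genes and the lists were chosen with earlier results of these data known. Named from the lists were genes with an unadjusted p of 0.05 or less, those with the smallest p and the highest mean FPKM of each list, partners of the 8 genes, and the nearest pattern of each. Genes with other close copies were not treated separately. Alternatives were a pseudocount of 0.1, other filters, 3 scalings, no variance trend and each library left out. Some genes of the lists, and 1 list, are not reported here.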

Additional observations from a re-analysis of the deposited data

How the results depend on the processing

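No paired analysis was possible because the groups share only replicate number 1. None of the genes tested, of the 8 genes or of the repair lists was called with another pseudocount, another filter, a scaling or no variance trend. With each library left out in turn, 0 to 1755 of all genes, 0 to 1 of the 7 genes (XRCC6, without Cu 3) and 0 to 28 of the 148 repair genes were called, the calls coming without Cu 1 (186, 0 and 1) or without Cu 3. At an unadjusted p of 0.05 the repair genes numbered 7 of 148 and all genes 599 of 8541, and they numbered 12 and 647 under median-of-ratios scaling, 12 and 658 under upper-quartile scaling and 3 and 557 without the variance trend. Without Control 1, Control 2, Cu 1 and Cu 3 they numbered 0 and 127, 3 and 203, 20 and 1324, and 46 and 2958. Directions turned under quantile normalization, median-of-ratios and upper-quartile scaling for BRCA1 (-0.098, -0.080 and -0.099), HUS1 (-0.070, -0.12 and -0.14) and RPA2 (-0.10, -0.24 and -0.26), and under the latter pair for USP7 (-0.13 and -0.15). With a library left out, differences that changed sign ranged from -0.50 to 0.16 for ATM, -0.37 to 0.23 for ATR, -0.38 to 0.66 for BRCA1, -0.40 to 0.079 for CHEK2, -0.22 to 0.94 for XRCC6, -0.33 to 0.21 for CETN2, -0.96 to 0.25 for FANCL, -0.36 to 0.62 for HUS1, -0.041 to 0.68 for LIG4, -0.62 to 0.34 for NBN, -0.19 to 1.09 for PLK3, -0.21 to 0.19 for PRKDC, -0.33 to 0.34 for RPA2, -1.45 to 0.094 for SHLD2, -0.44 to 0.17 for UBE2B, -0.070 to 0.30 for USP7 and -0.27 to 0.14 for XRCC5. CHEK1 and BRCA2 were lower in Cu under every alternative, BRCA2 with a value near 0 (-0.03) without Cu 1. The groups of CHEK1 did not overlap, so leaving out a library could not turn its direction. The cause of these changes was not tested. The depth is unknown, and what differences it would allow to be detected was not tested.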
